A study of Homo sapiens with 12 samples.

Results

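The cytoplasmic ribosomal protein genes encode the proteins that join ribosomal RNA to build the large and small subunits of the ribosome. Members were taken from the raw count table by gene symbol: RPL or RPS with a number and an optional A, X, L or L1 ending, plus RPLP0, RPLP1, RPLP2 and RPSA. This found 84 of 57500 gene IDs, of which 49 encode large subunit proteins outside the stalk, 32 small subunit proteins and 3 proteins of the stalk. The measurements are RNA-seq counts from total RNA of human cancer cell lines after removal of ribosomal RNA. SW480 and SW620 are colorectal lines from the same patient, the former from the primary tumour and the latter from a metastasis, both untreated in DMEM with serum. The ovarian cancer line PEO4 was kept in RPMI 1640 with serum and received either control medium or recombinant human TGFbeta at 10 ng/mL for 6 days. Each of the 4 groups holds 3 libraries labelled as biological replicates, 12 in all. Each line stands for 1 tumour, so a difference between SW480 and SW620 is a difference between 2 cell lines and cannot be told apart from what else sets those lines apart. The study is about drug response in primary against metastatic colorectal cancer, and the TGFbeta arm is a second comparison in the same deposit.

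Ribosomal proteins are made in near equal numbers, since a ribosome carries 1 copy of nearly all of them, and unassembled ones are degraded. Their genes are among the most strongly transcribed in growing cells, and MYC is known to raise their transcription. Their mRNAs typically begin with a cytosine followed by a run of pyrimidines, the 5′ terminal oligopyrimidine (TOP) motif, through which the mTOR pathway and the binding protein LARP1 control their translation. Colorectal cancer cells are known for high ribosome production. A few ribosomal protein genes have a second functional gene, a paralog such as RPL22L1 for RPL22 or RPL39L for RPL39, and nearly all have processed pseudogene copies that can attract reads.

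The annotated starts of 9 members whose values are described below are shown here to let a reader see the motif, which 7 of them carry, beside 2 paralogs without it. Other members described below, RPS29, RPL3 and RPS26 among them, have no such motif at a matched start and are not shown. RefSeq start windows (GRCh38.p14) were matched for 67 of the 84 members, with 83 starts. The motif searched was a C at the first transcribed base followed by at least 4 bases that are C or T, on the transcribed strand at that position alone. It was found at 47 of 83 member starts (56.6%), 1 in each of 47 members, against 1429 of 35116 starts of all genes (4.07%) and 6 of 84 starts of mitochondrial ribosomal protein genes (7.14%). Each line below gives 15 bases before and 15 bases from the annotated start, 5′ to 3′ in the direction of the gene, with the opening pyrimidine run in capitals.
RPS23, chr5:82278340-82278369, minus strand: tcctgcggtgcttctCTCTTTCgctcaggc
RPS12, chr6:132814554-132814583, plus strand: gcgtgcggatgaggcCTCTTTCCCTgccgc
RPS27, chr1:153990747-153990776, plus strand: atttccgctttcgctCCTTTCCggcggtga
RPL36A, chrX:101390996-101391025, plus strand: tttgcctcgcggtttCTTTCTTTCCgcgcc
RPL22, chr1:6199581-6199610, minus strand: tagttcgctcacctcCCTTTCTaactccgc
RPL26, chr17:8383179-8383208, minus strand: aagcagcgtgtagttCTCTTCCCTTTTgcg
RPL22L1, chr3:170870181-170870210, minus strand: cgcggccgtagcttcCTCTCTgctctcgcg
RPS27L, chr15:63157463-63157492, minus strand: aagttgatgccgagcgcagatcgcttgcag
RPL7L1, chr6:42879601-42879630, plus strand: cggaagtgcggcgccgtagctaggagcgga
The parent genes in this set open with the motif. Among the 5 paralogs with a matched start, RPL22L1 has it, and RPS27L and RPL7L1 do not have it at the start shown.

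Libraries held 14531420 to 22028956 counts. The labelled tissues were checked by their markers. PAX8, WT1, MUC16, FOLR1 and MSLN, taken as ovarian markers, summed to 5240 to 8580 scaled CPM (CPM after TMM scaling over the 12 libraries) in PEO4 control libraries and to 190 at most in the SW libraries. Most of the PEO4 control sum was MUC16, at a mean of 5660. FOLR1 went the other way, with means of 16.4 in SW620 and 12.6 in PEO4 control. CDX2, VIL1, CDH17, KRT20 and LGR5, taken as colorectal markers, summed to 35.4 to 58.3 in SW480, 269 to 392 in SW620 and 3.31 at most in PEO4. KRT20 averaged under 0.5 in both SW lines, and CDH17 and LGR5 averaged 0.548 and 1.16 in SW480. Mitochondrially encoded genes took 7.59% to 14.3% of the counts of a library. The SW480 and SW620 libraries numbered 2 were the shallowest, at 14712953 and 14531420 counts, and had the highest mitochondrial percentages of their lines, 14.3% and 12.8%.

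The members took a larger part of the RNA in SW620 than in SW480. Their share of all counts was 2.94%, 2.63% and 3.51% in the 3 SW480 libraries and 4.76%, 3.77% and 5.87% in the 3 SW620 libraries. The lowest SW620 library lay just above the highest SW480 library. The means were 3.03% ± 0.448 and 4.80% ± 1.05 (SD, n = 3 each), a ratio of 1.59, and the exact permutation test over libraries (two-sided) gave p = 0.1, the smallest value that 3 against 3 can give, and 0.3 after Benjamini-Hochberg adjustment over 12 shares. Large subunit genes with the stalk went from 1.86% to 2.91% and small subunit genes from 1.16% to 1.89%, each without overlap between the lines. In PEO4 the share was 3.21%, 3.33% and 3.61% in control and 3.43%, 3.93% and 3.42% with TGFbeta, so the groups overlapped (exact permutation p = 0.4). In bulk RNA a share measures the mean over all cells, and fewer cells with high levels and less RNA per cell cannot be told apart.

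**Figure D1:**
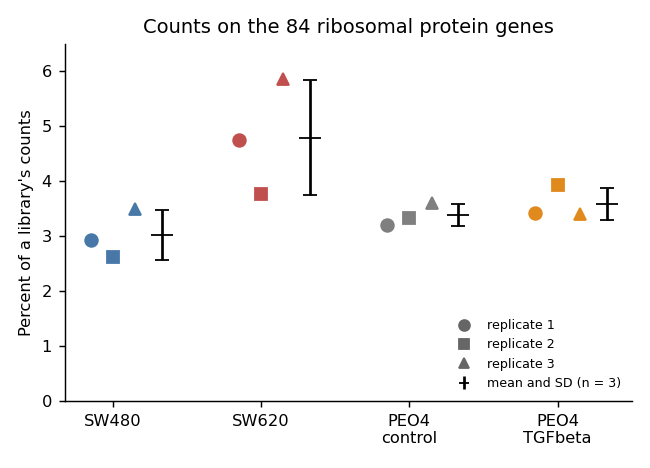
Percent of each library's counts that fell on the 84 ribosomal protein genes (vertical axis) in the 4 groups; each symbol is a library and the bar is the mean and SD of 3. SW620 libraries lie between 3.77% and 5.87%, above all SW480 libraries, while the PEO4 groups overlap.

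Within a line, the members moved together from library to library. On the log2 scale of scaled CPM, the median member in SW620 was 0.52 log2 units below its line's mean in replicate 2 and 0.54 above it in replicate 3. In SW480 the same deviations were -0.31 and 0.34. None of 82 members lay above the line's mean in either replicate 2, and 81 of 82 did so in either replicate 3. In PEO4 with TGFbeta, 82 of 82 lay above the group mean in replicate 2 and 2 of 82 in replicate 3. The members are therefore not independent of each other, and the spread between libraries of a line is mostly a shift of the whole family. The deepest library was the highest for the members in every group, though in PEO4 control by a median deviation of only 0.04. With TGFbeta, replicates 2 and 3 had nearly the same depth, 21622201 and 21523555 counts. Their median deviations were nevertheless the highest and the lowest of that group, 0.216 and -0.157. The part of depth in the shift was not tested. The mitochondrial percentage did not follow the shift in all groups: it was higher in replicate 3 than in replicate 1 of both SW lines, and highest, at 12%, in the TGFbeta library with the highest members.

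**Figure D2:**
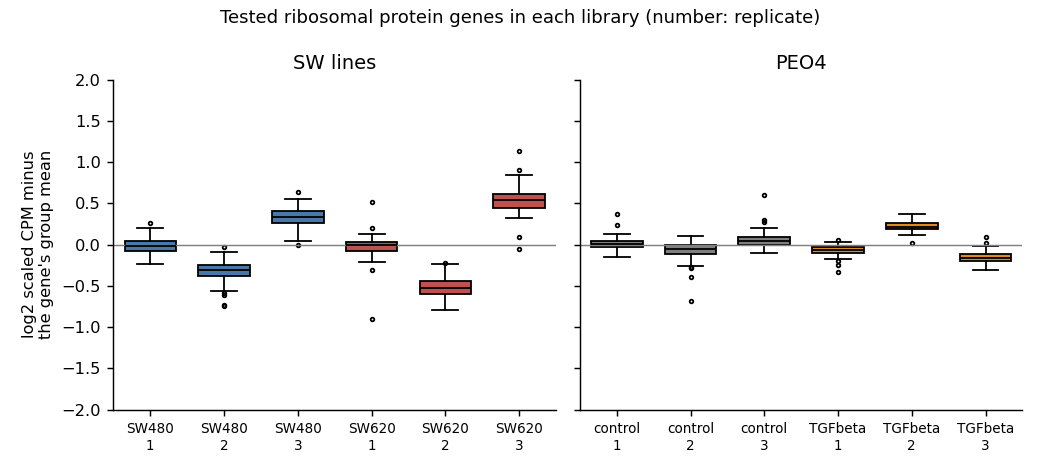
Deviation of each tested member from its group mean, in log2 units (vertical axis), in each of 12 libraries; boxes span the quartiles over members, the line is the median and points lie beyond the whiskers. Replicate 2 is low and replicate 3 high in both SW lines, and replicate 2 with TGFbeta is high in PEO4.

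SW620 was compared with SW480 to ask which ribosomal protein genes differ between the primary and the metastatic line. Of 82 members tested, 22 were higher in SW620 and 0 lower by edgeR's quasi-likelihood test at a Benjamini-Hochberg adjusted p under 0.05, and 60 were not called. Among all 20941 genes tested, 30.5% were called, 13.5% higher and 17% lower, so the members' 26.8% called higher stands against 13.5%. At an unadjusted p under 0.05, 38 members were higher and 1 lower, against 19.2% higher and 21.5% lower among all genes. Replicate values did not overlap between the lines for 23 members, all higher in SW620, where 19.9% of all genes were higher and 24% lower in that way. The fitted change was positive for 77 of 82 members, with a median log2 fold change of 0.63, a fold of 1.55, and quartiles of 0.33 and 0.91. The median over all genes was 0.03.

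How many members were called depended on which libraries entered. The count was 6 without SW480 replicate 1, 8 without SW480 replicate 2, 7 without SW620 replicate 1 and 53 without SW620 replicate 2, and 46 without both replicate 2 libraries, a choice made after the data were seen. The median log2 fold change fell to 0.30 without SW620 replicate 3. With other fits the count was 34 by DESeq2, 40 with all 12 libraries in 1 model and 43 with total-count scaling. In the authors' deposited table, 35 members were higher and 0 lower at an adjusted p under 0.05, with 16% of all its genes higher, and those 35 include the 22 called here.

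The 5 largest changes passing every condition for naming were in RPS23, RPL37, RPS27, RPS12 and RPL36A. RPS23 (chromosome 5, 82273358 to 82278577, GENCODE release 29 on GRCh38) encodes a small subunit protein at the decoding centre. It stood at 152, 132 and 198 scaled CPM in SW480 and at 526, 333 and 660 in SW620. The lowest SW620 library was above the highest SW480 library. The log2 fold change was 1.67 ± 0.28 (SE, edgeR adjusted p = 0.00182), and it was called in all alternatives run. RPL37, a zinc-binding large subunit protein (chromosome 5, 40825262 to 40835335), stood at 253, 225 and 337 scaled CPM in SW480 and at 777, 585 and 1153 in SW620, again without overlap. Its log2 fold change was 1.64 ± 0.28 (edgeR adjusted p = 0.00226).

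RPS12, a small subunit protein of the beak, stood at 77.5, 76.4 and 118 scaled CPM in SW480 and at 217, 152 and 332 in SW620. All SW620 libraries were higher, with a log2 fold change of 1.38 ± 0.30 (edgeR adjusted p = 0.00749). RPL36A, a large subunit protein near the exit site for transfer RNA, stood at 34.6, 28.9 and 33.3 in SW480 and at 109, 55.4 and 73.3 in SW620. Its log2 fold change was 1.31 ± 0.24 (edgeR adjusted p = 0.00309). RPS27, a zinc-binding small subunit protein, stood at 70.4, 37.0 and 88.9 in SW480 and at 162, 101 and 273 in SW620. The lines did not overlap, and the log2 fold change was 1.47 ± 0.40 (edgeR adjusted p = 0.0212). RPS12, RPL36A and RPL37 were called by edgeR and DESeq2 in all alternatives run, while RPS27 lost its call with the length correction (edgeR adjusted p = 0.0551) and without SW480 replicate 1, SW480 replicate 2 or SW620 replicate 1.

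**Figure D3:**
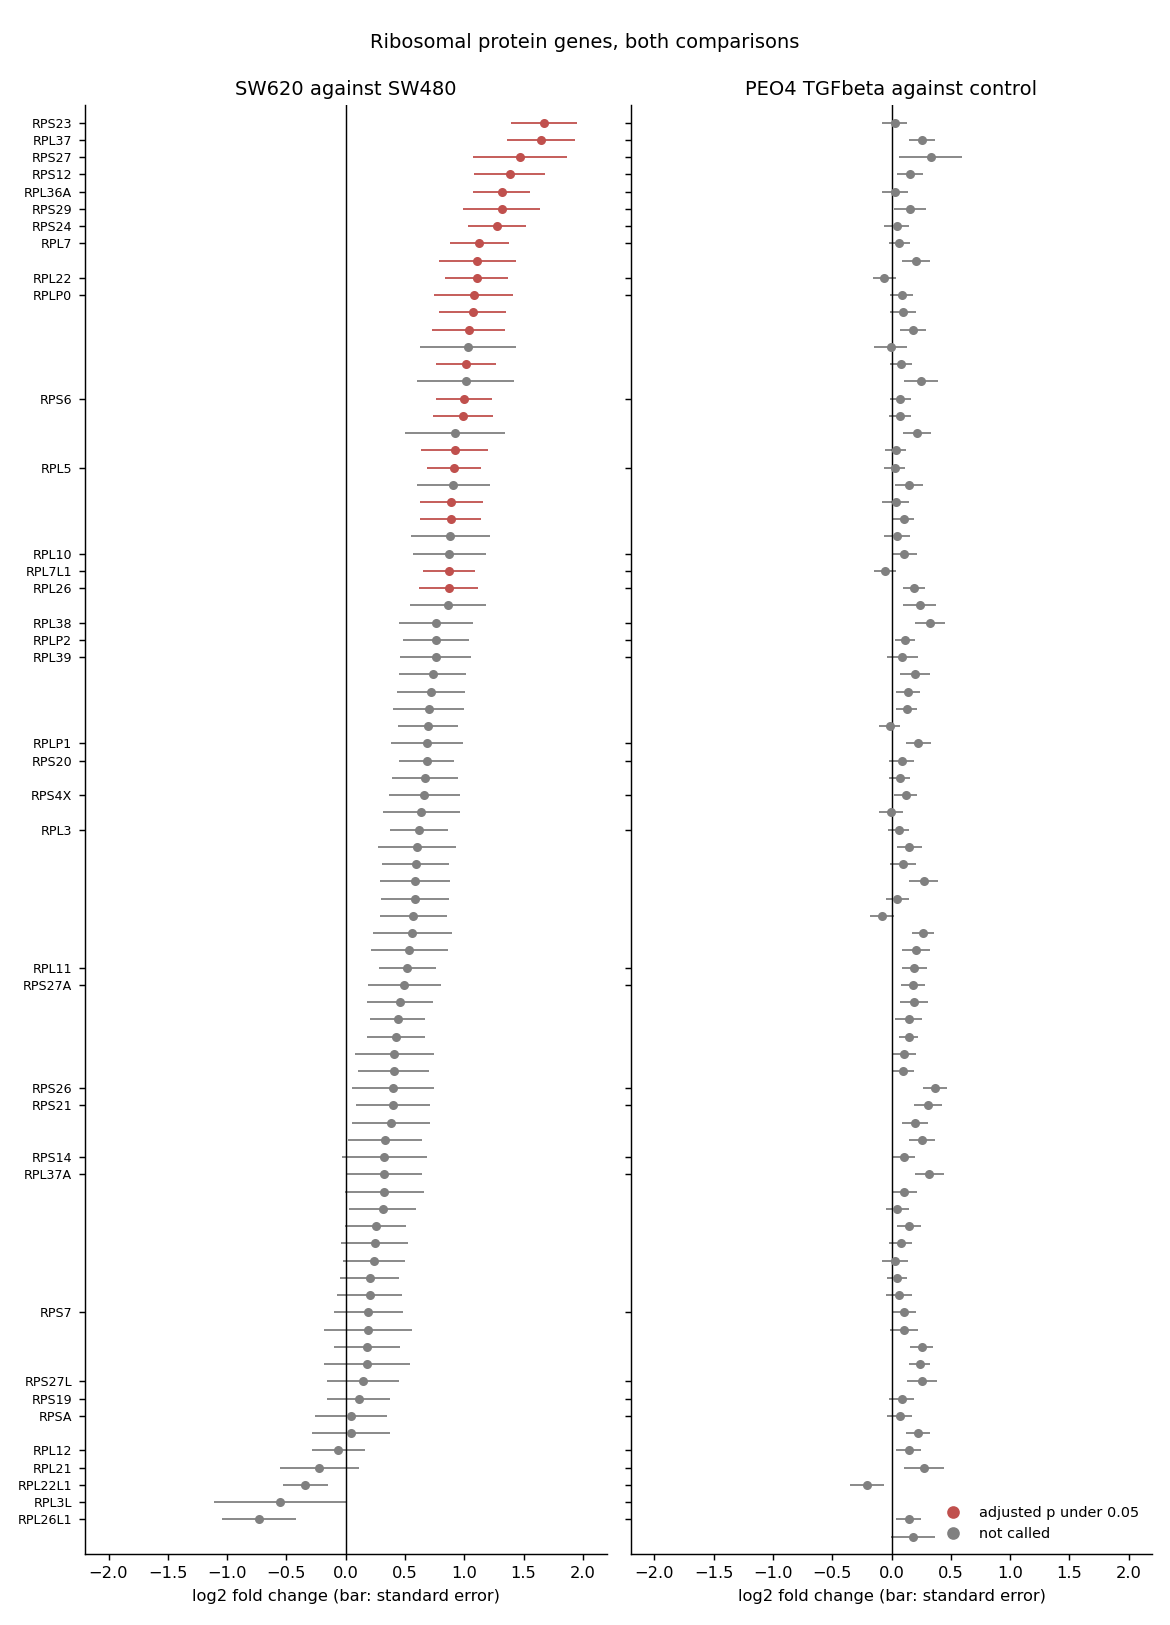
Fitted log2 fold change of each tested member (horizontal axis, bars are standard errors) for SW620 against SW480 on the left and TGFbeta against control in PEO4 on the right, both ordered by the SW change and with names for members whose values are given in the text. Members called at an adjusted p under 0.05 are red: 22 on the left, from 0.87 to 1.67, and 0 on the right.

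Small subunit genes were called more often than large subunit genes in number, 11 of 32 against 10 of 47, and the difference between the subunits was not tested. Their medians were 0.67 and 0.59. Besides RPS23, RPS12 and RPS27, the called small subunit genes included RPS29, RPS24, RPS13, RPS18, RPS3A, RPS6 and RPS25. RPS29 rose by a log2 fold change of 1.31 and RPS24 by 1.27 (edgeR adjusted p = 0.0135 and 0.00396). Mutations of RPS24 are known in Diamond-Blackfan anaemia. RPS6, the substrate of the S6 kinases, stood at 717, 716 and 852 scaled CPM in SW480 and at 1461, 1141 and 1893 in SW620. The SW620 libraries were all higher, with a log2 fold change of 1.00 ± 0.24 (edgeR adjusted p = 0.0118). The calls of RPS29 and RPS6 were lost without SW480 replicate 1, that of RPS29 also without SW620 replicate 1 and that of RPS6 also without SW480 replicate 2. RPS13 was called with overlapping replicate values, and RPS20 did not overlap but was not called (log2 fold change 0.68, edgeR adjusted p = 0.0537). At the low end of the small subunit, RPSA, also known as a laminin receptor, had a log2 fold change of 0.04 ± 0.31, with 522, 353 and 614 scaled CPM in SW480 and 488, 327 and 701 in SW620. RPS19, RPS7 and RPS14, picked after their values were seen, had fitted log2 fold changes of 0.11, 0.19 and 0.33 and were not called, and without SW620 replicate 3 all 4 had a fitted change below 0.

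The called large subunit genes besides RPL37 and RPL36A were RPL7, RPL22, RPL9, RPL4, RPL5, RPL6, RPL7L1 and RPL26. RPL5 and RPL11 join 5S ribosomal RNA in the particle that binds MDM2, the ubiquitin ligase of p53. RPL5 stood at 423, 392 and 500 scaled CPM in SW480 and at 794, 630 and 1015 in SW620, a log2 fold change of 0.91 ± 0.23 (edgeR adjusted p = 0.0143). RPL11 had a log2 fold change of 0.52 ± 0.24 and was not called (edgeR adjusted p = 0.139). RPL26, which is also known to bind the p53 mRNA, stood at 272, 221 and 301 in SW480 and at 469, 336 and 624 in SW620, with a log2 fold change of 0.87 ± 0.25 (edgeR adjusted p = 0.0277). RPL5 lost the call without SW480 replicate 1, SW480 replicate 2 or SW620 replicate 1, and RPL26 without any library but SW620 replicate 2, with edgeR adjusted p-values of 0.0544 to 0.10. RPL3, RPL10 and RPL39, parents of paralogs taken up below, and the small subunit genes RPS4X and RPS27A had log2 fold changes of 0.62, 0.87, 0.76, 0.66 and 0.49 and were not called. In the stalk that recruits elongation factors, RPLP0 rose by 1.08 ± 0.33 (edgeR adjusted p = 0.0369), and RPLP1 and RPLP2 had fitted changes of 0.69 and 0.76 with adjusted p-values of 0.125 and 0.0696. RPLP0 went from 594, 421 and 710 scaled CPM to 1145, 723 and 1733. Its call was lost when any SW480 library, SW620 replicate 1 or SW620 replicate 3 was left out.

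The 5 members with a negative fitted change were RPL26L1, RPL3L, RPL22L1, RPL21 and RPL12, at log2 fold changes of -0.73, -0.55, -0.34, -0.22 and -0.06, and none was called. The first 3 are paralogs of other members. Each paralog was therefore set against its parent within the same library, where differences in depth cancel. A shift of the whole family need not cancel, since in both lines the ratios of RPL22L1 and RPS27L were higher in replicate 2, where the family was low, than in replicate 3. The ratio is given as counts of the paralog per 1000 counts of the parent, and the pairs were fixed by name.

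RPL22L1 is a paralog whose level RPL22 is known to hold down. It had 179, 174 and 145 counts per 1000 of RPL22 in SW480 and 64.8, 73.2 and 49.4 in SW620. The lines did not overlap, and the log2 difference was -1.42. RPL22 itself rose by 1.10 ± 0.26 (edgeR adjusted p = 0.0117, lost without SW480 replicate 1 or SW620 replicate 1), while RPL22L1 stood at 15.5 to 19.2 scaled CPM in SW480 and 11.1 to 15.8 in SW620. RPL26L1 had 71.7, 61.0 and 62.8 counts per 1000 of RPL26 in SW480 and 20.3, 18.1 and 24.3 in SW620, a log2 difference of -1.64. RPS27L, a known p53 target, had 115, 164 and 99.5 counts per 1000 of RPS27 in SW480 and 39.5, 63.7 and 44.7 in SW620, a log2 difference of -1.35. In these pairs the parent rose and the paralog was not called in either direction.

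RPL7L1 differed from the other paralogs in that it was itself called, with a log2 fold change of 0.87 ± 0.22 (edgeR adjusted p = 0.0149). It stood at 124, 100 and 120 scaled CPM in SW480 and at 217, 149 and 254 in SW620, and its call was lost without any 1 of the SW480 libraries or SW620 replicate 1. RPL7 rose by 1.13 ± 0.25, and the ratio went from 430 ± 43.9 to 358 ± 9.07 per 1000 (SD, n = 3 each), a log2 difference of -0.26. RPL3L, a muscle paralog of RPL3, had 19 to 23 counts in the SW480 libraries and 7 to 30 in SW620, and its ratio to RPL3 went from 1.27 to 0.527 per 1000. For the 5 pairs in the SW lines the exact permutation test gave p = 0.1 each, the smallest possible, and 0.22 after adjustment over 11 ratio tests. RPL39L and RPL10L, both known from testis, had at most 3 counts in any SW library and were not tested there.

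**Figure D4:**
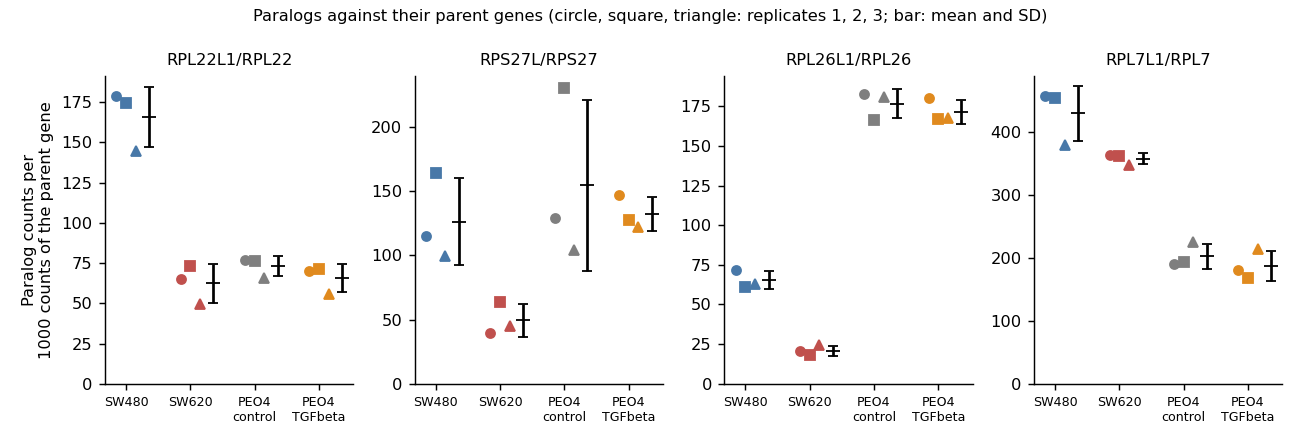
Counts of 4 paralogs per 1000 counts of the parent gene (vertical axes, each with its own scale from 0) in the 4 groups; each symbol is a library, the bar is the mean and SD of 3. SW620 lies below SW480 in each pair without overlap, and the PEO4 groups overlap.

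The genes that serve ribosome production were read from lists of other genes, to be set against 13.5% called higher and 17% lower among all genes tested. Of 73 ribosome assembly factors tested, 22 were higher in SW620 and 0 lower, with a median log2 fold change of 0.40. NOB1, the nuclease that finishes the RNA of the small subunit, rose by 2.10 ± 0.25 (edgeR adjusted p = 0.000263), from 59.2 ± 4.97 to 250.1 ± 82.7 scaled CPM (SD, n = 3 each). NIP7 and NOP56 rose by 1.77 and 1.33. Of 16 elongation factors and other TOP mRNAs, 9 were higher and 0 lower, with a median of 0.85. EEF2, which moves the ribosome along the mRNA, rose by 1.08, EEF1A1 by 1.01 and HNRNPA1 by 1.04 (edgeR adjusted p = 0.014, 0.048 and 0.00669). The call of EEF2 was lost without any 1 of the SW480 libraries, and that of EEF1A1 without any library but SW620 replicate 2, with RLE scaling and with the GC correction. TPT1 of the same list had a negative fitted change of -0.64 and was not called.

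Other lists moved less in one direction. Of 78 mitochondrial ribosomal protein genes, which serve the separate ribosome of the mitochondrion, 9 were higher and 5 lower, with a median of 0.19. MRPS30 rose by 1.38 and MRPS6 fell by 1.68. Of 15 genes for RNA polymerase I and its factors, 3 were higher and 1 lower, and of 29 initiation factors 4 were higher and 1 lower. The shares called higher among mitochondrial ribosomal protein genes and initiation factors were near the 13.5% of all genes. Among 15 regulators of ribosomal protein synthesis, MYC rose by 0.86 ± 0.28 (edgeR adjusted p = 0.0439) and MXD4, a member of the opposing MAX network, by 2.19, while AKT1S1 and RHEB, both of the mTOR pathway, fell by 0.75 and 0.74. The call of MYC was lost without any library but SW620 replicate 2, and those of AKT1S1 and RHEB with the GC correction (RHEB also with the length correction) and without SW480 replicate 1 or 3 or SW620 replicate 1 or 2. MTOR and LARP1 had fitted changes of -0.08 and -0.18 and were not called. Of the 9 chaperones of single ribosomal proteins, 2 were higher and 0 lower, with a median of -0.00094. HEATR3 of this list, which carries RPL5 into the nucleus, rose by 1.28. CDKN1A, the p53 target p21 listed with the 5S particle, fell by 4.07. Among ribosomal proteins whose symbols lie outside the naming rule, RACK1, FAU and RPL36AL had fitted changes of 0.21, 0.36 and 0.43 and were not called.

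**Figure D5:**
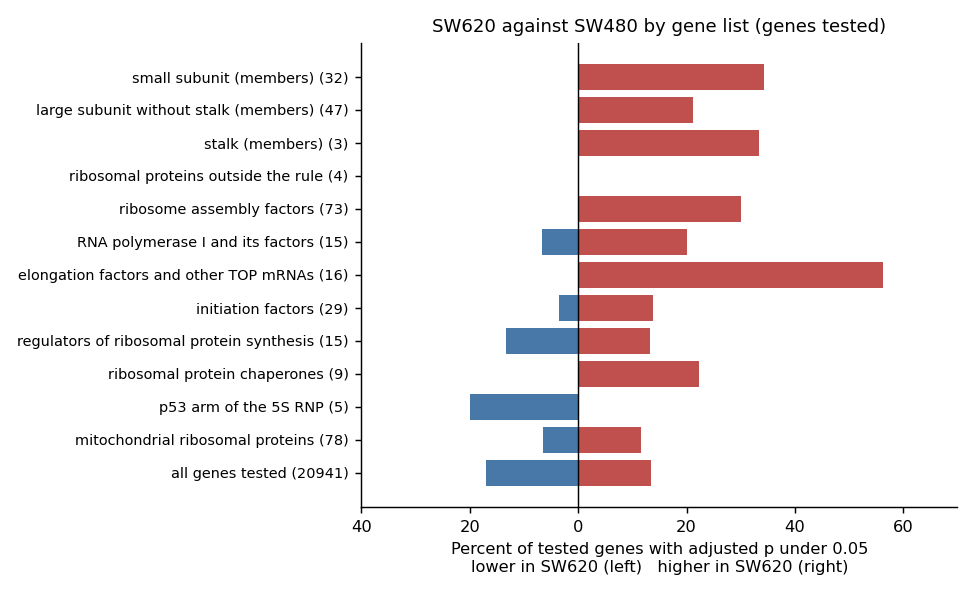
Percent of tested genes called higher (right, red) or lower (left, blue) in SW620 for the members by subunit, for the other gene lists and for all genes; the number tested is in brackets. Members, assembly factors, elongation factors with other TOP mRNAs, and chaperones have calls to the right alone. Of all genes, 17% are on the left and 13.5% on the right.

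TGFbeta treatment of PEO4 was compared with control to ask whether the growth factor moves ribosomal protein mRNA. No member was called: 0 of 82 by edgeR, by DESeq2 and in the authors' deposited table, where 2.26% of all 19064 genes were called by edgeR and 5.11% in the deposited table. At an unadjusted p under 0.05, 10 members were higher and 0 lower, where 8.98% of all genes were higher and 7.68% lower. They included RPL18, RPL23, RPL27, RPL36, RPL37, RPL37A, RPL38, RPS21 and RPS26. Replicate values did not overlap for 11 members, all higher with TGFbeta (13.4%, against 11.6% of all genes), and for no member lower, against 8.48%. The fitted change was positive for 75 of 82, but small: the median was 0.11, a fold of 1.08, and the range -0.21 to 0.37. Without TGFbeta replicate 2 the median was 0.04. With no filter on low counts, 4 members were called by edgeR.

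RPS26, a small subunit protein at the mRNA exit channel, had the largest fitted change. It stood at 55.9, 48.4 and 63.1 scaled CPM in control and at 69.7, 81.6 and 69.5 with TGFbeta. The groups did not overlap, and the log2 fold change was 0.37 ± 0.10 (edgeR adjusted p = 0.114). RPL38 had 242, 244 and 238 scaled CPM in control and 311, 372 and 247 with TGFbeta, a log2 fold change of 0.32 ± 0.13 (edgeR adjusted p = 0.239). RPL37A had a log2 fold change of 0.32 and RPS21 of 0.31. RPS23, the most changed member in the SW lines, was at 0.03 ± 0.11 here, and RPS6 at 0.07 ± 0.09. Of the paralogs with their parents, the 5S particle and stalk members, RPSA, RPS4X and RPS27A, none was called, and RPS27 had the highest fitted change, 0.33. RPL22L1 had the lowest fitted change of all members, -0.21 ± 0.15, at 18.7, 18.0 and 17.6 in control and 15.6, 19.8 and 12.9 with TGFbeta, so its groups overlapped.

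The paralog ratios overlapped between control and TGFbeta for all 6 pairs. RPL22L1 had 73.0 ± 6.28 counts per 1000 of RPL22 in control and 65.6 ± 8.72 with TGFbeta, and RPL26L1 had 177 ± 9.20 and 171 ± 7.37 per 1000 of RPL26 (SD, n = 3 each). The exact permutation p was 0.3 and 0.5. Of the lists of other genes, the assembly factors had 0 of 73 called and a median of 0.00, and the elongation factors and other TOP mRNAs 0 of 16. Among 77 mitochondrial ribosomal protein genes MRPL52 alone was called, higher by 0.57. Over all genes 1.27% were called higher and 0.991% lower. The call of MRPL52 was lost in 1 model of all 12 libraries and without any library but control replicate 1. CDKN1A was higher by 0.99. Of the ovarian markers MSLN fell by 0.77 and WT1 by 0.47 (edgeR adjusted p = 0.00375 and 0.0274). MUC16, FOLR1 and PAX8 had fitted changes of -1.27, -0.56 and 0.03 and were not called. The call of WT1 was lost in 1 model of all 12 libraries and without control replicate 2 or any 1 of the TGFbeta libraries.

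The level of each member was also compared across groups, as a description without a test, since the lines differ in tissue, medium and origin. RPL39L was read at 118 to 206 counts in each PEO4 library, 6.80 to 11.4 scaled CPM, and at 0 to 3 counts in each SW library, where 3 counts correspond to 0.139 to 0.175 scaled CPM. In PEO4 control it had 56.3 ± 16.4 counts per 1000 of RPL39 and with TGFbeta 59.2 ± 2.67 (SD, n = 3 each). The SW library with 3 RPL39L counts, SW620 replicate 3, also held 1.15% of the PEO4 level over 29 genes otherwise near 0 in the SW lines, which would bring 2.06 RPL39L counts. By the same estimate SW480 replicates 1 and 3 would hold 0.211 and 0.249 counts, where 1 and 2 were read. SW620 replicate 2 would hold 0, where 1 was read. The source of these counts was not tested. RPL10L had at most 1 count in any library.

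Other members with separate levels were picked after the values were seen. RPL30 stood at 244 to 388 scaled CPM in the 6 PEO4 libraries and at 30.8 to 113 in the 6 SW libraries. RPL8 stood at 1750 to 2473 in PEO4 and at 453 to 1327 in the SW lines. RPS12, which rose in SW620, reached 152 to 332 there against 252 to 359 in PEO4, so the SW620 levels overlapped with the PEO4 levels and the SW480 levels did not. RPL37 and RPL26 went the other way in SW620. At 197 to 301 and 116 to 162 scaled CPM in PEO4, they were at 585 to 1153 and 336 to 624 in SW620. In SW480 RPL37 stood at 225 to 337, which overlapped with PEO4, and RPL26 at 221 to 301, above PEO4.

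Between genes, levels were compared per kilobase of the union of annotated exons. In PEO4 control RPL8, RPL13A and RPS2 led with 898 ± 87.3, 888 ± 57.6 and 848 ± 34.8 scaled CPM per kilobase (SD, n = 3 each), which do not differ beyond their spread, followed by RPL19 at 698 ± 31.0 and RPS25 at 421 ± 4.02. With TGFbeta the same 5 genes led. In SW480 RPL19, RPL13A and RPS2 led at 512 ± 89.9, 511 ± 126 and 467 ± 94.9, and in SW620 RPL13A, RPS2, RPS18, RPL19 and RPS6 led at 784 ± 316 to 552 ± 139, with spreads that overlap. RPL22L1 and RPS27L were near the bottom in each group, at 5.93 to 7.78 and 0.841 to 3.06 scaled CPM per kilobase. With this length, they shared the low end with members that are not paralogs, such as RPL36A at 6.41 ± 0.640 in PEO4 control, RPS29 at 4.72 ± 1.5 in SW480 and RPL17 at 11.1 ± 4.05 in SW620 (SD, n = 3 each). RPL36A, RPS29 and RPL17 have exon unions of 3964, 9845 and 2466 bases, but shortest principal transcripts of 429, 296 and 669 bases. Their low place therefore depends on the length used, while RPL22L1 has 2326 and 2190 bases. RPS27L is long by either measure, at 9127 and 6434 bases, so its low place also reflects its length. Before division by length, RPS27L averaged 22.8 scaled CPM in PEO4 control and 28.0 with TGFbeta, where RPL22L1 averaged 18.1 and 16.1. In SW480 and SW620 RPS27L averaged 7.67 and 8.36 and RPL22L1 17.7 and 13.8. The exon union of many members includes retained introns, and with the longest coding transcript or the shortest principal transcript in its place a mean of 3.75 of the 5 leading members of a group stayed the same.

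Copies of the members were counted separately in the table. There were 1147 genes named as copies of 77 members, 370 of them at 0 in every library, and together they took 1.07% of the counts on members and copies. In the SW lines the copies' share was highest for RPL9, 17.7% in SW480 and 17.0% in SW620, followed by RPL17 in SW480 (13.8%) and RPL41 in SW620 (11.6%). RPL36A had 7.63% of its counts on copies in SW480, 2.52% in SW620 and 12% in PEO4 control, the highest share there. With copies added to their parents, 23 members were called in the SW lines in place of 22. How the counting treated reads that match a parent and a copy equally is not given in the sources used here, so the levels of these genes are uncertain to that extent. Parts of the exons of RPL10, RPS10, RPL17, RPS2, RPL30 and RPL36A, 55.5%, 39.4%, 35.3%, 25.6%, 21.6% and 8.40% of their length, are also annotated to readthrough, antisense or other overlapping genes, and their counts are uncertain for the same reason.

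Members of lower GC content had the larger changes in the SW lines. The 41 members with the lower exon GC had a median log2 fold change of 0.72 and the 41 with the higher GC 0.56. Across the 82 members, which are not independent, Spearman's rho between GC content and log2 fold change was -0.26, against -0.07 over all genes. In PEO4 rho was 0.00 over the members. With a loess correction for GC content in each library 23 members were called in the SW lines, and with one for length 28. Members with and without the TOP motif at an annotated start had similar medians in the SW lines, 0.64 over 47 and 0.62 over 19 members.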

How the data were processed

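The submitters' processing notes name Trimmomatic 0.36, STAR 2.5.2b, featureCounts, Subread 1.5.2, DESeq2 and GRCh38, without their settings. The gene annotation, the use of strand and the treatment of reads matching several genes are not given in the sources used here. The deposited raw counts (whole numbers per gene, 14531420 to 22028956 per library) were used for all tests. The authors' deposited tables also hold log2 fold changes, p-values and adjusted p-values, taken as theirs, and normalized signal values, not used here. Symbols came from the count table, and positions, GC content and lengths from GENCODE 29.

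The 6 libraries of a comparison were tested alone with edgeR 4.0.16 (filterByExpr, TMM, quasi-likelihood F test, Benjamini-Hochberg over all genes tested, threshold 0.05) in R 4.3.3, a procedure tested on simulated data. Changes are edgeR log2 fold changes with their standard errors. DESeq2 1.42.0 was an alternative. Shares and ratios (with a pseudocount of 0.5 on the log2 scale) used exact permutation tests. Named were the paralogs with their parents, RPL5, RPL11, the stalk, RPSA, RPS6, RPS4X and RPS27A, the 5 highest and 5 lowest called members with non-overlapping replicates and at least 10 CPM, the ends of the level order, up to 4 genes per list, and MYC, MTOR, LARP1, RACK1, FAU and EEF1A1. Some genes are not reported here. Other genes named were chosen after their values were seen. The members and lists were chosen with earlier results of these data known. Labels call the replicates biological without saying what was separate, so p-values measure the spread between these libraries.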

Additional observations from a re-analysis of the deposited data

How the results depend on the processing

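In SW620 against SW480, 22 members were called as reported. RLE scaling, a minimum of 10 counts, removal of the filter, of mitochondrial and small RNA genes or of members from the TMM factors, addition of copies, and GC or length correction gave 22 to 32. The count was 43 with total-count scaling, 34 with DESeq2, 40 in 1 model of all 12 libraries and 46 without the 2 shallowest libraries. Leaving out 1 library gave 6 to 53, and a median log2 fold change of 0.30 to 0.89. In PEO4, 0 members were called, 4 with no filter, and 0 whichever library was left out.

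The replicate numbers were tested for pairing by the correlation of deviations from the group means, which was 0.0159, 0.67 and 0.567 for same-numbered SW libraries and 0.291, -0.14 and 0.481 for PEO4, so not every pair passed 0.1 and the numbers were not taken to pair the libraries, though SW libraries numbered 2, and those numbered 3, deviated together. With the replicate block, 62 members were called in the SW lines and 3 in PEO4, where calls over all genes went from 6385 to 10667 and from 431 to 2102. The block with GC correction gave 69 and 1, and with length correction 71 and 2. The calls over all genes in PEO4 were 967 by DESeq2, 1457 with no filter and 165 in 1 model of all 12 libraries. The length correction with the block, the 2 libraries left out and the shortest transcript were chosen after seeing the data.

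In the SW lines GC and length correction moved the median of all genes from 0.03 to 0.14 on the log2 scale. RPL12 turned to 0.0493 with GC and 0.0564 with length correction (0.0322 and 0.0457 with the block), and MTOR to 0.0258 and 0.123 (0.0221 and 0.12 with the block), both uncalled. The sign of other uncalled SW changes turned with 1 library left out, over -0.27 to 0.33 for RPSA, -0.17 to 0.37 for RPS19, -0.14 to 0.44 for RPS7, -0.094 to 0.67 for RPS14, -0.57 to 0.078 for RPL21, -0.28 to 0.093 for RPL12, -0.24 to 0.35 for RPS27L, -0.17 to 9.6e-05 for MTOR and -0.36 to 0.028 for LARP1. In PEO4 this held for RPS23, -0.067 to 0.11, and for the log2 ratio differences of RPL39L to RPL39, -0.080 to 0.33, and RPS27L to RPS27, -0.39 to 0.18. The cause was not tested.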
